A study of Mus musculus with 59 samples.

Results

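The 39 Hox genes of the mouse were followed through embryonic stem cells (ESCs) and embryoid bodies (EBs) in which subunits of Polycomb repressive complex 1 (PRC1) had been mutated or deleted. Members were all gene symbols made of Hox, a cluster letter from a to d and a paralogue number, and they are 39 of the 24391 genes listed in every library. The Hoxa cluster gave 11 members, Hoxb 10, Hoxc 9 and Hoxd 9. By paralogue number, 8 members are anterior (1 to 3), 15 central (4 to 8) and 16 posterior (9 to 13). RNA-seq of poly(A) RNA from 59 libraries of 6 conditional ESC lines was used, each line with control and mutant ESCs and EBs. ESCs are pluripotent cells, kept on mouse embryonic fibroblast (MEF) feeders with LIF and kinase inhibitors, and EBs are the aggregates they formed in 2 days of suspension without these. All lines carry ERT2-Cre, a recombinase that 4-hydroxytamoxifen activates. Controls were the floxed (f/f) cells and mutants the recombined (delta/delta) cells. Pcgf1 to Pcgf5 were deleted 2 days before EBs were formed, and Pcgf6 and RING1B were lost from the time of EB formation.

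The Pcgf1 line (ERT2-Cre;Pcgf1f/f) holds 4 control ESC, 5 knockout (KO) ESC, 5 control EB and 5 KO EB libraries. Every other line has 2 libraries in each of its 4 groups. In the Ring1pm line both groups carry Ring1apm/pm, a catalytic point mutation of RING1A, and the mutants add Ring1bpm/pm, so its controls are not wild type. In the Ring1AB line both groups are Ring1a-/- and the mutants lose the floxed *Ring1b* as well. The Pcgf24, Pcgf35 and Pcgf6 lines carry floxed Pcgf2 and Pcgf4, Pcgf3 and Pcgf5, or Pcgf6. Nothing in the labels says that same-group libraries came from separate cultures, so the *p*-values measure the spread between these libraries, which may be technical.

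Hox genes encode homeodomain transcription factors that give cells of the embryo their position along the head-to-tail axis. They lie in 4 clusters, and within a cluster the genes at the 3′ end, with low paralogue numbers, are used earlier and nearer the head than those at the 5′ end. In ESCs the clusters are textbook targets of Polycomb repression. PRC1 places ubiquitin on histone H2A through RING1A or RING1B, its catalytic subunits, and 1 of 6 PCGF proteins defines each form of the complex.

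On mm9 with GENCODE M1 gene models, the Hoxa cluster lies on chromosome 6 (minus strand, 106 kb). Hoxb lies at 96055630 to 96229570 on chromosome 11, Hoxc at 102751534 to 102867274 on chromosome 15 and Hoxd at 74506367 to 74603200 on chromosome 2, all 3 on the plus strand. The spans of 8 members, introns included, overlap that of another member on the same strand. They are *Hoxa3* with *Hoxa4*, *Hoxa5* and *Hoxa6*, *Hoxb7* with *Hoxb8*, and *Hoxd3* with *Hoxd4*. The authors counted exon reads on UCSC mm9, and overlap of exons was not checked. Whether reads were split between these genes is therefore unknown. The library kit is not stated to keep strand, so sense and antisense reads cannot be told apart. In the 300 bases before the annotated start, members held a median of 12 CG dinucleotides (range 3 to 43), against 9 for the 22373 protein-coding genes. Of the 39 windows, 15 (38.5%) had over 50% G and C and an observed-over-expected CG ratio above 0.6, against 35.8% of all genes. By this cut the shares were close, while the median of the ratio was 0.65 in members and 0.48 in all genes. The windows end at the annotated start, so CG-rich sequence after it was not counted. That start is the outer end of the whole gene record, which can be long (52118509 to 52163335 for *Hoxa3*). Whether transcripts of these cells begin there was not checked, so the shares do not compare the promoters in use. The windows of 4 members are printed 5′ to 3′, with each CG in capitals, because their levels carry the main patterns. *Hoxd13* was the highest member of Ring1pm mutants, *Hoxa7* had the largest fold change in Ring1pm ESCs, *Hoxc13* was the highest member of control ESCs in the Pcgf1 line, and *Hoxb1* was listed at 0 in that line's ESCs and had reads in its EBs. They lie at chr2:74506067-74506366 (plus strand), chr6:52171854-52172153 (minus strand), chr15:102751234-102751533 (plus strand) and chr11:96226766-96227065 (plus strand) of mm9.
Hoxd13: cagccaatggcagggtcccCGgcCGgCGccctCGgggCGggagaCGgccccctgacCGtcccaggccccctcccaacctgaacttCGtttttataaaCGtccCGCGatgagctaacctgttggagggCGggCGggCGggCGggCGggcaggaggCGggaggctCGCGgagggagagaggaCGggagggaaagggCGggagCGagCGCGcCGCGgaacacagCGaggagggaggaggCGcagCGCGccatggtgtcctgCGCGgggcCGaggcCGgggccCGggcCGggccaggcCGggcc
Hoxa7: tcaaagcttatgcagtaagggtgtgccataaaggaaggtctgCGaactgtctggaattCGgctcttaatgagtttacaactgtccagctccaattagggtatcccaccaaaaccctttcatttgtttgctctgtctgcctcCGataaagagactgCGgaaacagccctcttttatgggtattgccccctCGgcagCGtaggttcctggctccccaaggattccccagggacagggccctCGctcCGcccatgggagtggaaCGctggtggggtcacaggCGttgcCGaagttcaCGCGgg
Hoxc13: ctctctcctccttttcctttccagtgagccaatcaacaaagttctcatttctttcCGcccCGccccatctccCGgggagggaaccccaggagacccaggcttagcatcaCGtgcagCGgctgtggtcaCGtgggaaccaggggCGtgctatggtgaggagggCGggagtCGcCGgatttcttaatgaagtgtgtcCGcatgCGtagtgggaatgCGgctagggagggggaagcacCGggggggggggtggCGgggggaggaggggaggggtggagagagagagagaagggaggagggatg
Hoxb1: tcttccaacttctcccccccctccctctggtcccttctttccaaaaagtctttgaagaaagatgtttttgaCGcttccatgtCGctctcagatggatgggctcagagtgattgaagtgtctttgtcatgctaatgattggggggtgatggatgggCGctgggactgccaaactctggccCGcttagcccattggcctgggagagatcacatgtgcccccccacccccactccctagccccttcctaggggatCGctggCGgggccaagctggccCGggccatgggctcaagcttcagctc
The 4 windows hold 37 CG dinucleotides at *Hoxd13*, 13 at *Hoxa7*, 15 at *Hoxc13* and 7 at *Hoxb1*.

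Values are TPM (length-scaled transcript shares of a fixed library total), and each library sums to 1000000, so its depth is unknown. Between 6039 and 9139 genes a library were listed at 0. In the Pcgf1 line, Pcgf1 was at 7.30 to 16.6 TPM in controls and 0.627 to 2.77 in KO libraries. A point mutation leaves no trace in TPM, so the Ring1pm genotype could not be checked in this way. In the Ring1AB line *Rnf2*, the gene of RING1B, was at 62.9 to 95.1 TPM in all 8 libraries, so its RNA did not show which of them were mutant, and *Ring1*, the gene of RING1A that both groups lack, was at 0.973 to 3.41 TPM there and 9.11 to 15.6 in the Ring1pm line. *Klf4*, an ESC gene, was at 262 to 1664 TPM in ESC libraries of these 2 lines and 3.54 to 122 in their EBs. In 21 of the 32 libraries of the other 4 lines the condition in the deposited name differs from the label. There, ESC libraries by label had 3.25 to 766 TPM of *Klf4* and ESC libraries by name 120 to 766, while EB libraries by label had 6.80 to 709 and by name 3.25 to 118. *Fgf5*, an EB gene, was at 0 to 0.816 TPM in ESC libraries by name and 7.53 to 46.3 in EB libraries by name. By label it was at 0 to 35.2 TPM in ESC libraries and 0 to 46.3 in EB libraries. By these 2 genes the stages stand apart by name and are mixed by label. Results below therefore rest on the Pcgf1 and Ring1pm lines, whose labels and names agree, and for the other lines the levels by library and the calls by label are given.

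Hox RNA was higher in RING1B catalytic mutant ESCs of the Ring1pm line, with called members in all 4 clusters. The 39 members together had 26.4 and 23.0 TPM in the 2 control ESC libraries and 80.1 and 116 TPM in the 2 mutant ones. In these bulk samples, more cells with a Hox RNA and more of it per cell cannot be told apart. Log2 fold changes, from limma on log2(TPM + 0.1), were positive for 37 of 39 members, with a median of 2.17 against 0.12 for all 20279 genes tested. At an adjusted *p* under 0.05, which is what "called" means throughout, 10 members were higher and 0 lower, where 2.34% of all genes were called higher. At an unadjusted *p* under 0.05 there were 31 of 39, against 3388 of the 20279 genes. The 10 were *Hoxa7*, *Hoxa9*, *Hoxa10*, *Hoxb7*, *Hoxb13*, *Hoxc9*, *Hoxd1*, *Hoxd9*, *Hoxd11* and *Hoxd13*. Of them 7 are posterior, 2 central and 1 anterior, and 3 belong to Hoxa, 2 to Hoxb, 1 to Hoxc and 4 to Hoxd. Over all members, called or not, the median log2 fold change was 2.55 for posterior, 1.76 for central and 2.34 for anterior ones.

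The posterior end of Hoxd gave the highest mutant level. *Hoxd13*, a gene of digit and genital development, was at 0.8005 and 0.378 TPM in control ESCs and 9.85 and 14.4 in mutant ESCs (log2 fold change 4.19 ± 0.40, adjusted *p* = 0.00882). *Hoxd9* was at 0 and 0.298 TPM in control ESCs and 2.501 and 4.54 in mutant ESCs (log2 fold change 4.12 ± 0.68, adjusted *p* = 0.0289). *Hoxd11*, which acts in the forelimb and kidney, was at 0.0393 and 0 TPM in control ESCs and 0.748 and 1.22 in mutant ESCs (log2 fold change 3.16 ± 0.47, adjusted *p* = 0.0248). In each of these 3 genes both mutant libraries lay above both controls, the second mutant library being the higher. Most members described here and below were chosen by their calls in these same libraries. A lack of overlap between their groups largely follows from that choice and is no further support. How many of all genes show it was not counted. At the other end of the cluster, *Hoxd1*, the most anterior Hoxd gene, was at 0.356 and 0.336 TPM in control ESCs and 3.71 and 3.47 in mutant ESCs (log2 fold change 3.05 ± 0.33, adjusted *p* = 0.0119), with no overlap either.

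In Hoxa the called members were neighbours in the middle and posterior of the cluster. *Hoxa7*, a trunk gene of the vertebral column, was at 0.255 and 0.1605 TPM in control ESCs and 4.08 and 7.59 in mutant ESCs (log2 fold change 4.22 ± 0.51, adjusted *p* = 0.0146). *Hoxa9*, known from blood progenitors, was at 0.154 and 0.09696 TPM in control ESCs and 1.67 and 3.13 in mutant ESCs (log2 fold change 3.42 ± 0.48, adjusted *p* = 0.0211). *Hoxa10*, a gene of lumbar vertebrae and the uterus, was at 0.422 and 0.149 TPM in control ESCs and 3.68 and 6.12 in mutant ESCs (log2 fold change 3.75 ± 0.59, adjusted *p* = 0.0267). Groups did not overlap in any of the 3. In Hoxb, *Hoxb7* was at 0.392 and 0.3701 TPM in control ESCs and 2.84 and 6.01 in mutant ESCs (log2 fold change 3.14 ± 0.51, adjusted *p* = 0.0283). The only negative values were those of 2 other Hoxb members, *Hoxb8* (-0.07) and *Hoxb9* (-0.52), neither of them called. *Hoxb9*, a gene of the rib cage, had 3.62 and 5.34 TPM in control ESCs and 1.89 and 4.84 in mutant ESCs, so its groups overlapped.

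In Ring1pm EBs the same direction held for all 39 members. Together they had 12.98 and 23.0 TPM in control EBs and 98.8 and 140 TPM in mutant EBs, and their median log2 fold change was 2.60 against 0.10 for all genes. Here 19 members were called higher and 0 lower, against 3.76% of all genes called higher. At an unadjusted *p* under 0.05 there were 32 members, against 4188 of the 20279 genes. Of the 19, 12 of the 16 posterior members, 6 of the 15 central and 1 of the 8 anterior members were called, and by cluster 4 in Hoxa, 3 in Hoxb, 5 in Hoxc and 7 in Hoxd. Median log2 fold changes were 2.83 for posterior, 2.60 for central and 1.96 for anterior members. All 10 members called in ESCs were called in EBs as well, which is 100% of the ESC list and 52.6% of the EB list. The 2 lists come from separate libraries of 1 fit. The same overlap was not counted over all genes, so it cannot be read as particular to Hox members. The 9 others were *Hoxa13*, *Hoxb6*, *Hoxc4*, *Hoxc6*, *Hoxc10*, *Hoxc13*, *Hoxd8*, *Hoxd10* and *Hoxd12*.

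*Hoxd8*, a central Hoxd gene, had the largest value, with 0 and 0.689 TPM in control EBs and 5.55 and 7.602 in mutant EBs (log2 fold change 4.55 ± 0.89, adjusted *p* = 0.0359), and without the first control library, which is listed at 0, the log2 fold change was 3.06 and the call was lost. Its posterior neighbour *Hoxd9* was at 0.434 and 0.6198 TPM in control EBs and 5.84 and 7.38 in mutant EBs (log2 fold change 3.43 ± 0.68, adjusted *p* = 0.0378). *Hoxd13* reached the highest level of any member in this line, 14.3 and 19.03 TPM in mutant EBs against 1.35 and 1.42 in control EBs (log2 fold change 3.48 ± 0.40, adjusted *p* = 0.011). In all 3 genes the mutant libraries stood clear of the controls. *Hoxb7* was at 0.359 and 0.147 TPM in control EBs and 5.05 and 6.35 in mutant EBs (log2 fold change 4.10 ± 0.51, adjusted *p* = 0.0121). In Hoxa, *Hoxa9* was at 0.141 and 0.2303 TPM in control EBs and 3.11 and 4.47 in mutant EBs (log2 fold change 3.76 ± 0.48, adjusted *p* = 0.0132). *Hoxa10* was at 0.483 and 0.178 TPM in control EBs and 4.84 and 8.08 in mutant EBs (log2 fold change 3.98 ± 0.59, adjusted *p* = 0.0168). In each of these 3 genes too, chosen by their calls, both mutant libraries were above both controls.

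The Hoxc cluster went from 1 called member in ESCs to 5 in EBs. *Hoxc9*, which sets the identity of thoracic motor neurons, was at 0.0883 and 0.108 TPM in control EBs and 2.51 and 3.801 in mutant EBs (log2 fold change 4.01 ± 0.43, adjusted *p* = 0.0104), and at 0.289 and 0.182 TPM in control ESCs and 2.095 and 2.56 in mutant ESCs. *Hoxc10*, its lumbar counterpart, was at 0.159 and 0.194 TPM in control EBs and 2.26 and 3.34 in mutant EBs (log2 fold change 3.37 ± 0.54, adjusted *p* = 0.0207). *Hoxc13*, a gene of hair and nail, was at 0.999 and 1.07 TPM in control EBs and 5.56 and 6.75 in mutant EBs, and at 6.67 and 6.18 TPM in control ESCs and 9.31 and 8.38 in mutant ESCs. Its ESC groups were thus already high on both sides, and its difference between the mutant effects in EBs and ESCs was 2.00 ± 0.37 on the log2 scale (unadjusted *p* = 0.000847, adjusted *p* = 0.244). It was the 1 member past an unadjusted *p* of 0.05 in this interaction, against 1076 of the 20279 genes. In it 0 members were called and 0.00986% of all genes were. A larger effect on the cluster in EBs than in ESCs was therefore not shown by limma.

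Called members of the Ring1pm line rested on the full set of libraries. Leaving out 1 library left 1 group with a single sample, assumed to vary like the others. The count in ESCs then fell from 10 to 1 (without control replicate 1) or 0 (without control replicate 2 or either mutant replicate). In EBs it fell from 19 to 0 and 1 (without control replicate 1 or 2) and to 3 and 1 (without mutant replicate 1 or 2). Directions held: over these fits the log2 fold change of *Hoxd13* ran from 3.74 to 4.65 in ESCs and from 3.28 to 3.69 in EBs. Markers of other cells moved too. The sum of 12 MEF markers, some of which are also used by mesoderm, was 40.5 to 44.8 TPM in control ESCs, 75.8 to 80.1 in mutant ESCs, 33.9 to 38.8 in control EBs and 89.3 to 91.3 in mutant EBs. The highest of the 12, *Thy1*, was at 24.5 to 30.9, 38.5 to 40.2, 21.6 to 24.9 and 45.1 to 46.1 TPM in these groups, in the same order. Of the 12, 1 was called higher in mutant ESCs and 5 in mutant EBs. *Col1a1*, a collagen gene of fibroblasts, was at 3.01 to 16.3 TPM over the 8 libraries and the fibroblast genes *Lum* and *Dcn* at 0 to 0.656 TPM. Their part in the result was not tested. Of 4 primitive endoderm markers, 2 were called higher in ESCs (*Gata4* and *Gata6*) and 1 in EBs (*Gata6*), and of 5 mesoderm markers 1 and 2 (*Mesp1*, with T in EBs). In mutant ESCs 2 of 6 EB markers were called higher, *Car4* at 4.17 to 4.50 TPM against 0.843 to 0.892 in control ESCs and *Wt1* at 4.51 to 4.95 against 0.101 to 0.429, and 0 of 7 ESC markers were called. In mutant EBs 4 of 6 EB markers were called lower, with *Fgf5* at 2.91 and 3.06 TPM against 44.0 and 22.7 in control EBs, and 3 of 7 ESC markers higher.

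**Figure D1:**
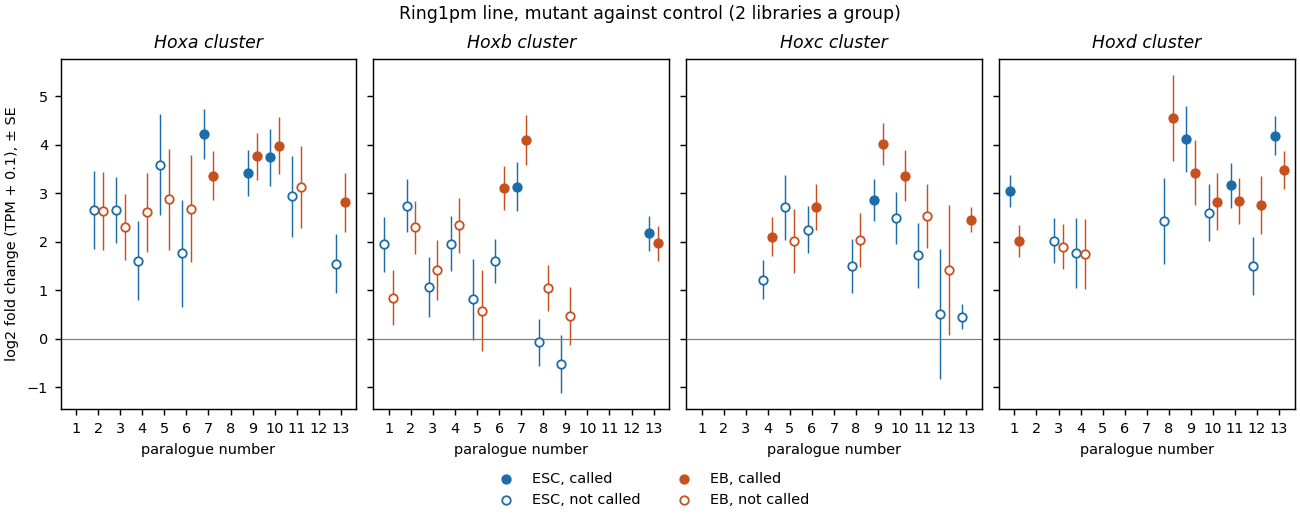
Log2 fold change with its standard error, mutant against control, for 38 Hox members of the Ring1pm line by cluster (panels) and paralogue number (horizontal axis), in ESCs (blue) and EBs (orange), with 2 libraries a group and filled points for an adjusted *p* under 0.05. All 38 EB points lie above 0, and 36 of the 38 ESC points do.

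In controls of the Ring1pm line, 2 members were called between the stages. *Hoxd1* was called higher in control EBs than in control ESCs, at 1.55 and 1.997 against 0.356 and 0.336 TPM (log2 fold change 2.06 ± 0.33, adjusted *p* = 0.0178), where 2.73% of all genes were called higher. *Hoxc13* was called lower, at 0.999 and 1.07 against 6.67 and 6.18 TPM (log2 fold change -2.52 ± 0.26, adjusted *p* = 0.00392), where 2% of all genes were called lower. In both genes the stages did not overlap. The call of *Hoxd1* was lost when each of the 4 libraries was left out in turn, and that of *Hoxc13* was kept. Between mutant EBs and mutant ESCs 0 members were called (0.133% of all genes were). At an unadjusted *p* under 0.05 there were 2, *Hoxb6* and *Hoxd1*, against 1974 of the 20279 genes, and the median log2 difference of members was 0.39.

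In control ESCs of the Pcgf1 line a few members carried most of the Hox RNA. The cluster sums in its 4 control ESC libraries were 27.1 to 34.0 TPM, of which the Hoxc members took 13.2 to 24.4 TPM. *Hoxc13* was at 4.503, 12.6, 14 and 8.07 TPM, *Hoxc12* at 2.92, 3.02, 6.06 and 2.598 and *Hoxc4* at 3.83, 2.14, 3.44 and 4.54. The posterior Hoxb genes, *Hoxb9* at 3.56, 3.46, 2.31 and 4.15 and *Hoxb13* at 3.92, 4.53, 3.46 and 2.904 TPM, were over 1 TPM in all 4 as well. Between 6 and 8 of the 39 members reached 1 TPM in a control ESC library. RNA of feeder markers was present too. The 12 MEF markers in control and KO ESCs summed to 154 to 289 TPM, with *Col1a1* at 95.4 to 218, *Prrx1* at 0.589 to 1.502, and *Lum* and *Dcn* at 0 to 0.817 TPM. How far the posterior Hox RNA moved with these markers was not tested.

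Loss of PCGF1 in ESCs moved no member past the threshold. In KO ESCs the cluster sums were 33.8 to 52.7 TPM, so the lowest KO library lay just under the highest control library. Log2 fold changes were positive for 30 of 39 members, with a median of 0.43 against -0.02 for all 20594 genes, but 0 members were called by limma (0.641% of all genes were). Past an unadjusted *p* of 0.05 were 1777 of the 20594 genes and 2 members. These were *Hoxa3*, at 0, 0, 0 and 0.287 TPM in controls and 0.382, 0.546, 0.647, 0.238 and 0.637 in KO ESCs (log2 fold change 2.01 ± 0.62, adjusted *p* = 0.198), and *Hoxd8*, at 0.311, 0, 0.263 and 0.564 TPM in control ESCs and 0.563, 0.643, 0.508, 1.05 and 0.917 in KO ESCs. The groups of *Hoxa3* overlapped by the fourth replicates, and those of *Hoxd8* by 1 control library. The highest member, *Hoxc13*, was at 9.99, 19.96, 15.5, 10.9 and 8.88 TPM in KO ESCs, which overlapped with controls (log2 fold change 0.47 ± 0.45, adjusted *p* = 0.9). In the 4 same-numbered ESC pairs *Hoxc4*, *Hoxc13*, *Hoxd8* and *Hoxd11* were higher in the KO library in 4 of 4 and 0 members were lower in all, against 14.5% and 19.2% of all genes. With the replicate number as a block limma again called 0 members, where 2.53% of all genes were called higher and 2.78% lower.

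In EBs, 3 members were called higher after loss of PCGF1, where 1.08% of all genes were called higher, and 0 were called lower. An unadjusted *p* under 0.05 was reached by 13 of 39 members, against 2470 of the 20594 genes. *Hoxc4*, a neck and shoulder level gene, was at 0, 0, 0.286, 1.2 and 0.768 TPM in control EBs and 1.72, 1.35, 0.7203, 3.86 and 3.71 in KO EBs (log2 fold change 2.57 ± 0.63, adjusted *p* = 0.042). *Hoxa7* was at 0.148, 0, 0, 0 and 0.234 TPM in control EBs and 0.438, 0.912, 1.22, 0.302 and 0.755 in KO EBs (log2 fold change 2.31 ± 0.54, adjusted *p* = 0.0331). *Hoxa10* was at 0.0917, 0, 0.1804, 0 and 0.0484 TPM in control EBs and 0.163, 0.566, 1.06, 0.749 and 0.645 in KO EBs (log2 fold change 2.13 ± 0.54, adjusted *p* = 0.0482). For *Hoxa7* every KO library was above every control library, while in *Hoxc4* KO replicate 3 lay below control replicates 4 and 5, and in *Hoxa10* KO replicate 1 lay below control replicate 3. All 3 were higher in 5 of 5 same-numbered pairs. All 3 are also called in Ring1pm mutant EBs, at levels of 2.95 to 8.08 TPM there, where KO EBs had 0.163 to 3.86 TPM.

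Signs of the log2 fold changes differed by cluster in KO EBs, a difference that was not tested. All 11 Hoxa members had positive log2 fold changes, with a median of 1.17, and 4 of the 10 Hoxb members did, with a median of -0.61, against -0.03 for all genes. Among the anterior Hoxb genes, which pattern the hindbrain, 0 were called. *Hoxb1* was at 2.91, 0.837, 2.18, 0.687 and 1.39 TPM in control EBs and 0.329, 0.642, 1.38, 0.0945 and 0 in KO EBs (log2 fold change -1.94 ± 0.55, adjusted *p* = 0.0797). *Hoxb2* was at 5.66, 2.49, 8.005, 1.31 and 1.68 TPM in control EBs and 1.68, 1.09, 3.22, 0 and 0.226 in KO EBs (adjusted *p* = 0.261). Groups overlapped in both, and without KO EB replicate 3 *Hoxb1* was called (log2 fold change -2.42, adjusted *p* = 0.0135). In same-numbered pairs *Hoxb1*, *Hoxb2*, *Hoxb3* and *Hoxb5* were lower in the KO library in 5 of 5, *Hoxb7* and *Hoxb9* were higher in 5 of 5, and *Hoxb4* was higher in 2 and lower in 3. Over all members 8 were higher in 5 of 5 pairs and 4 lower, against 9.11% and 13% of all genes. With the replicate number as a block, used because same-numbered libraries of this line deviate together, 8 members were called in place of 3, 7 of them higher and 1 lower, where the same fit called 4.83% of all genes higher and 5.58% lower. They were the same 3, with *Hoxa4*, *Hoxa9*, *Hoxc13* and *Hoxd9* higher and *Hoxb1* lower (adjusted *p* = 0.0241).

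The 3 calls of the fit without the block depended on single libraries. Leaving out libraries was not tried with the replicate block. The count of 3 fell to 0 without control EB replicate 2, KO EB replicate 2 or KO EB replicate 5, and to 1 without control EB replicate 1, 3 or 4 or KO EB replicate 4. By library series, the groups of replicates that share identifiers in the deposited data (replicate 1, replicates 2 and 3, and replicates 4 and 5), the log2 difference of *Hoxa7* was 1.12, 3.53 and 1.68. That of *Hoxa10* was 0.46, 2.39 and 2.71, and that of *Hoxc4* was 4.19, 2.47 and 1.87, so the direction held in each. *Hoxb1* had -2.81, -0.48 and -2.96. *Hoxa5*, a gene of the lung and the neck, had 3.20, 3.39 and -0.05, and with replicates 1 to 3 alone it was the 1 member called. The effect of PCGF1 loss in EBs minus that in ESCs was called for 0 members (0.00486% of all genes were). At an unadjusted *p* under 0.05 there were 3, *Hoxb7* (2.49 ± 1.05), *Hoxb1* (-1.94 ± 0.80) and *Hoxd11* (-1.32 ± 0.56), with adjusted *p* of 0.762, 0.745 and 0.772. Of the 20594 genes, 1195 were past that unadjusted limit. With the replicate block this difference was again called for 0 members, where 0.835% of all genes were called higher and 0.782% lower. As to the stage of the cells, *Klf4* ranged from 3.54 to 12.4 TPM over control EBs and from 4.85 to 74.6 over KO EBs, and *Fgf5* from 25.4 to 68.5 and from 8.46 to 45.8 TPM. Of the 4 primitive endoderm markers 2 were called higher, of 5 mesoderm markers 1, and of 12 MEF markers 1 higher and 1 lower. Their part in the Hox values was not tested.

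**Figure D2:**
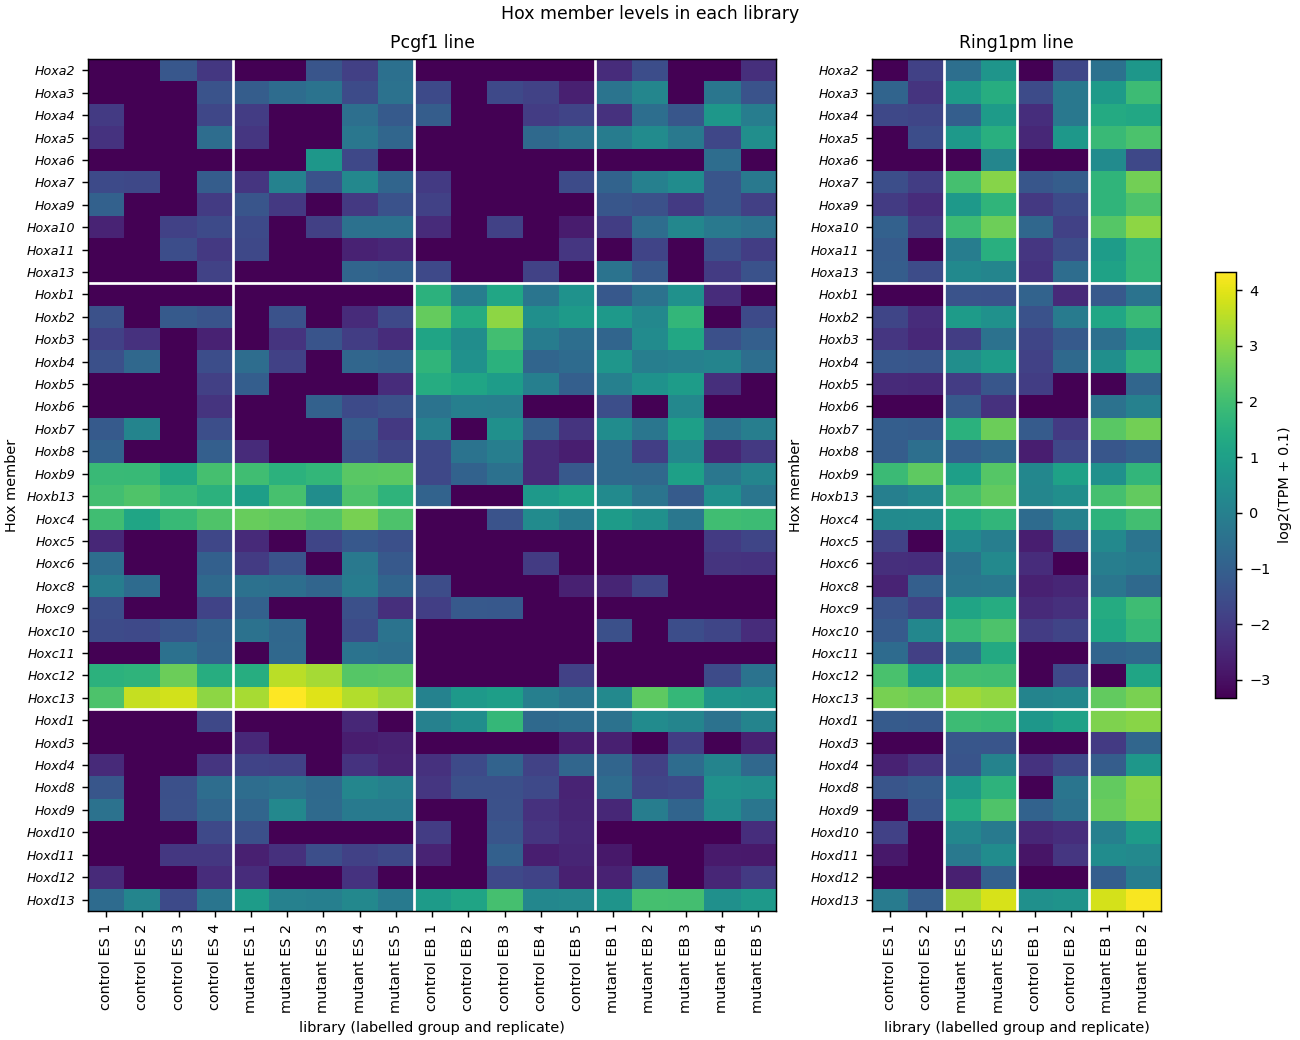
Level of 38 Hox members (rows, by cluster and paralogue number) in each library (columns) of the Pcgf1 and Ring1pm lines, as log2(TPM + 0.1), with white lines between clusters and groups. Ring1pm mutants are brighter in all 4 clusters, and in the Pcgf1 line the anterior Hoxb rows brighten in EBs while *Hoxc12*, *Hoxc13* and *Hoxb9* darken.

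Between control ESCs and EBs of the Pcgf1 line, called members of Hoxb and Hoxd were mostly higher in EBs and those of Hoxc lower. In control EBs against control ESCs 8 members were called higher (11.5% of all genes were) and 7 lower (13.4% of all genes were). With the replicate block the same 15 members were called. That fit called 20.7% of all genes higher and 23.3% lower, and 8 and 7 of 39 members are not above these shares. Of the 8, 5 belong to Hoxb (*Hoxb1* to *Hoxb5*) and 3 to Hoxd (*Hoxd1*, *Hoxd4* and *Hoxd13*). Of the 7, 5 belong to Hoxc (*Hoxc4*, *Hoxc8*, *Hoxc10*, *Hoxc12* and *Hoxc13*) and 2 to Hoxb (*Hoxb9* and *Hoxb13*). By position, 4 of 8 anterior members were higher and 0 lower, and 1 of 16 posterior members was higher and 5 lower. No Hoxa member was called, and their median was -0.10.

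*Hoxb1*, a marker of the early hindbrain, was listed at 0 in all 4 control ESC libraries and was at 2.91, 0.837, 2.18, 0.687 and 1.39 TPM in control EBs (adjusted *p* = 7.17e-05). *Hoxb2*, its hindbrain neighbour, was at 0.274, 0, 0.349 and 0.299 TPM in ESCs and 5.66, 2.49, 8.005, 1.31 and 1.68 in EBs (log2 fold change 3.46 ± 0.86, adjusted *p* = 0.00597). *Hoxb3* was at 0.1803, 0.114, 0 and 0.0654 TPM in control ESCs and 2.09, 1.25, 3.96, 0.831 and 0.573 in control EBs (log2 fold change 3.08 ± 0.60, adjusted *p* = 8.96e-04). In these 3 genes every EB library was above every ESC library, and EB replicates 1 and 3 were the highest. *Hoxb5*, a gene of the shoulder and enteric nerves, was at 0, 0, 0 and 0.171 TPM in control ESCs and 2.58, 2.14, 1.79, 0.879 and 0.401 in control EBs (log2 fold change 3.46 ± 0.79, adjusted *p* = 0.00331). *Hoxd1* was at 0, 0, 0 and 0.218 TPM in control ESCs and 0.929, 1.25, 3.35, 0.511 and 0.572 in control EBs (log2 fold change 3.10 ± 0.47, adjusted *p* = 9.03e-05). Neither overlapped. Within the 3 library series the log2 differences of *Hoxb5* were 4.75, 4.36 and 1.37 and those of *Hoxd1* were 3.36, 4.43 and 1.01, lowest in replicates 4 and 5 but of 1 sign.

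*Hoxd13*, with a log2 fold change of 1.52 ± 0.47, was the 1 posterior member called higher, from 0.5403, 1.03, 0.229 and 0.686 to 1.74, 2.101, 4.11, 1.05 and 1.103 TPM, without overlap (adjusted *p* = 0.0239).

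Of the 7 members called lower, *Hoxc4*, *Hoxc12*, *Hoxc13*, *Hoxb9* and *Hoxb13* were over 1 TPM in all 4 control ESC libraries. *Hoxc12* was at 0, 0, 0, 0 and 0.181 TPM in control EBs, listed at 0 in 4 of 5, against at least 2.60 in every control ESC library (log2 fold change -4.85 ± 0.61, adjusted *p* = 1.29e-05). *Hoxc13* was at 0.948, 1.67, 1.86, 0.8802 and 0.688 TPM (log2 fold change -2.88 ± 0.45, adjusted *p* = 1.27e-04), *Hoxc4* at the values given for EBs above (log2 fold change -3.36 ± 0.67, adjusted *p* = 0.00109) and *Hoxb9* at 0.214, 0.4296, 0.6302, 0.0882 and 0.338 TPM (log2 fold change -3.09 ± 0.42, adjusted *p* = 3.11e-05). In all 4 every EB library was below every ESC library. *Hoxc10* was at 0.234, 0.222, 0.297 and 0.424 TPM in control ESCs and listed at 0 in all 5 control EBs (adjusted *p* = 0.00718). *Hoxc8*, a trunk gene, was at 0.849, 0.538, 0 and 0.514 TPM in control ESCs and 0.243, 0, 0, 0 and 0.0643 in control EBs (log2 fold change -1.64 ± 0.55, adjusted *p* = 0.037), with overlap through the third ESC replicate, listed at 0. MEF markers moved with them: their sum was 198 to 289 TPM in control ESCs and 28.2 to 48.2 in control EBs, with 7 of 12 called lower and 2 higher, and their part in the lower Hox values was not tested. In the Ring1pm line the marker sum was 40.5 and 44.8 TPM in control ESCs and 33.9 and 38.8 in control EBs, with 0 of 12 markers called (median log2 difference 0.02). There *Hoxc13* was the 1 of these 7 members called lower in EBs, with 2 libraries a group. Uncalled, *Hoxc12* went from 4.32 and 1.67 TPM in control ESCs to 0 and 0.221 in control EBs, and *Hoxb9* from 3.62 and 5.34 to 1.07 and 1.998. *Hoxc4* and *Hoxc10* were also lower in both control EB libraries than in both control ESC libraries. *Hoxc8* overlapped, and *Hoxb13* was at 0.883 and 1.07 TPM in control ESCs and 1.04 and 1.27 in control EBs.

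In KO EBs against KO ESCs 5 members were called higher (8.13% of all genes were) and 4 lower (10.2% of all genes were). The higher ones were *Hoxb1*, *Hoxb3*, *Hoxb7*, *Hoxd1* and *Hoxd4*. *Hoxd1* went from 0, 0, 0, 0.0812 and 0 TPM in KO ESCs to 0.643, 1.19, 1.02, 0.632 and 0.989 in KO EBs (log2 fold change 3.11 ± 0.44, adjusted *p* = 6.44e-05), without overlap. *Hoxb7* went from 0, 0, 0, 0.357 and 0.142 to 1.21, 0.701, 1.88, 0.618 and 0.871 TPM (log2 fold change 2.74 ± 0.72, adjusted *p* = 0.0112). In control cells it was at 0.352, 1.004, 0 and 0.256 TPM in ESCs and 0.908, 0, 1.34, 0.375 and 0.12 in EBs, where it was not called. *Hoxb1*, listed at 0 in all 5 KO ESC libraries, reached the KO EB levels given above (adjusted *p* = 0.0164). *Hoxb3* went from 0, 0.124, 0.295, 0.162 and 0.0968 to 0.459, 1.195, 2.303, 0.264 and 0.396 TPM (log2 fold change 1.88 ± 0.56, adjusted *p* = 0.0249), its lowest KO EB library lying between the KO ESC values.

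Those called lower in KO EBs were *Hoxc12*, *Hoxc13*, *Hoxc8* and *Hoxb9*. *Hoxc12* went from 2.596, 11.5, 9.75, 4.84 and 5.13 TPM in KO ESCs to 0, 0, 0, 0.233 and 0.655 in KO EBs (log2 fold change -4.98 ± 0.57, adjusted *p* = 5.81e-06). *Hoxc13* went from the KO ESC values above to 1.12, 5.301, 3.33, 1.45 and 1.36 TPM (log2 fold change -2.51 ± 0.43, adjusted *p* = 3.49e-04). *Hoxb9* went from 3.87, 2.91, 3.25, 5.04 and 5.204 to 0.507, 0.494, 1.94, 0.727 and 1.02 TPM (log2 fold change -2.13 ± 0.40, adjusted *p* = 8.43e-04). *Hoxc8* went from 0.616, 0.586, 0.463, 0.8295 and 0.456 to 0.0722, 0.188, 0, 0 and 0 TPM (log2 fold change -2.30 ± 0.52, adjusted *p* = 0.00402). The 4 genes showed no overlap between the stages, and in each of the 3 library series they were lower. With the replicate block 16 members were called in place of 9, all 9 among them, with 8 higher and 8 lower, where that fit called 16.8% of all genes higher and 20% lower. MEF markers had sums of 154 to 230 TPM in KO ESCs and 16.99 to 24.3 in KO EBs, and their part was not tested.

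**Figure D3:**
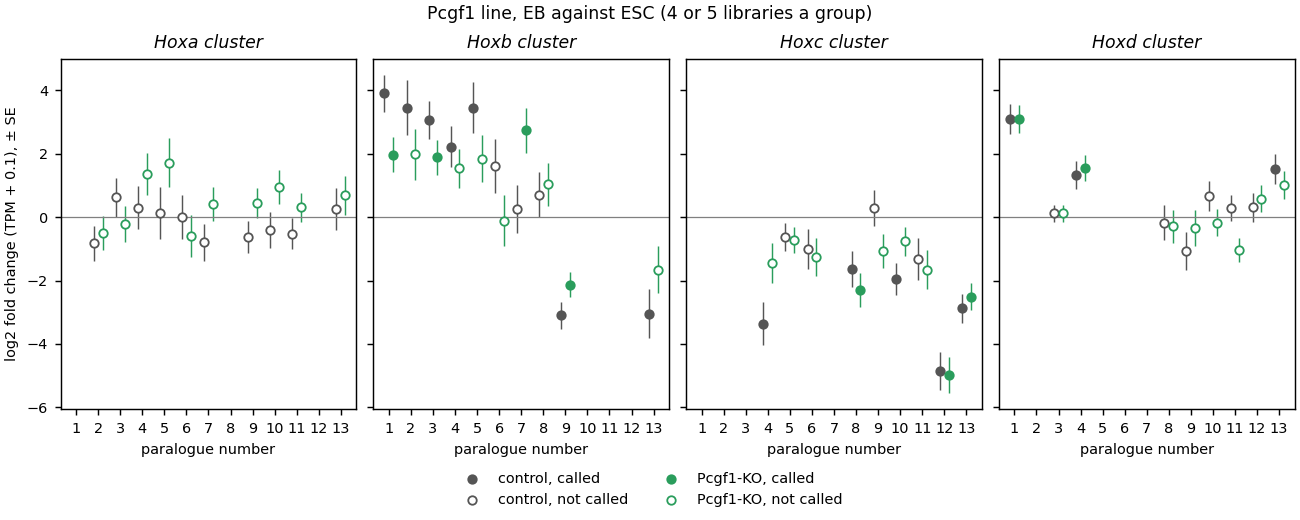
Log2 fold change with its standard error, EBs against ESCs, for 38 Hox members of the Pcgf1 line by cluster (panels) and paralogue number (horizontal axis), in control (grey, 4 and 5 libraries) and Pcgf1-KO cells (green, 5 and 5 libraries), with filled points for an adjusted *p* under 0.05. Anterior Hoxb members and *Hoxd1* lie above 0, and *Hoxc12*, *Hoxc13* and *Hoxb9* below.

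**Figure D4:**
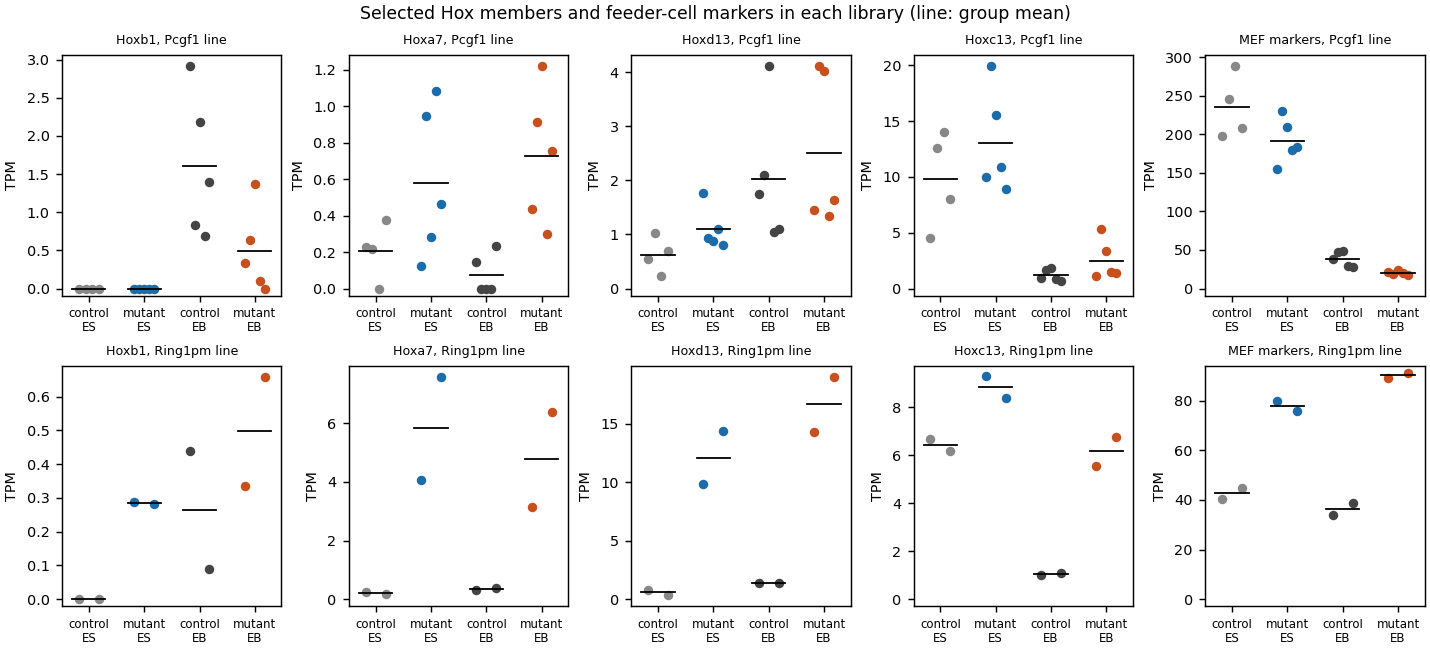
TPM of *Hoxb1*, *Hoxa7*, *Hoxd13* and *Hoxc13* and the sum of 12 MEF markers in each library of the Pcgf1 (top) and Ring1pm line (bottom), 1 point a library and a line at each group mean, with a separate linear axis from 0 in each panel. *Hoxa7* and *Hoxd13* stand apart in Ring1pm mutants, *Hoxb1* appears in EBs of the Pcgf1 line, and *Hoxc13* is low in control EBs of both lines.

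The Ring1AB line, in which all cells lack *Ring1a*, held the highest Hox levels of the series, but the conditions of 4 of its 8 libraries differ between label and deposited name. Its 2 libraries each of control ESCs and mutant EBs carry the same condition in both. Between these, stage and genotype cannot be told apart. The clusters summed to 32.9 and 35.5 TPM in control ESCs and 245 and 247 TPM in mutant EBs, and 34 members were called higher and 0 lower, where 36.6% of all 20344 genes were called higher. The median log2 difference was 3.53, against 0.20 for all genes. *Hoxd13* went from 1.53 and 1.74 to 40.5 and 40.4 TPM (log2 fold change 4.55 ± 0.12, adjusted *p* = 2.65e-07). *Hoxa10* went from 0.279 and 0.159 to 20.06 and 20.8 TPM (log2 fold change 6.03 ± 0.26, adjusted *p* = 1.88e-06). *Hoxa11*, its neighbour and a partner of *Hoxd11* in limb and kidney, was at 0.0638 and 0 TPM in control ESCs and 12.2 and 11.3 in mutant EBs. *Hoxc13* was at 8.52 and 7.99 TPM in control ESCs and 11.02 and 10.6 in mutant EBs, a much smaller difference from an already high level.

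The libraries labelled control EB, named mutant ES in the deposited data, had 175 and 185 TPM over the clusters, and the libraries labelled mutant ES, named control EB, had 34.2 and 32.2 TPM. In those labelled control EB, *Hoxd13* had 31.9 and 32.9 TPM, *Hoxd9* 10.7 and 12.5, *Hoxa10* 6.73 and 6.12 and *Klf4* 665 and 709 TPM. In those labelled mutant ES, *Hoxd13* had 2.61 and 2.08 TPM, *Hoxb1* 1.52 and 1.82, *Hoxc13* 1.92 and 1.47 and *Klf4* 9.90 and 7.38 TPM. The libraries labelled control EB thus had many Hox members at high level together with an ESC level of *Klf4*. The MEF marker sum was 396 and 423 TPM in them, against 159 and 161 in control ESCs, 39.02 and 40.1 in those labelled mutant ES and 97.7 and 98.2 in mutant EBs, and its part was not tested.

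By label, 33 members were called higher in control EBs than in control ESCs of the Ring1AB line (28.6% of all genes were) and 34 in mutant EBs than in mutant ESCs (36.6% of all genes were), with 0 lower in either. Mutant against control gave 7 higher and 0 lower in EBs (19.3% of all genes were higher) and 13 higher and 10 lower in ESCs (25.2% and 23.6% of all genes were higher and lower). In the latter, 7 of the 13 belong to Hoxb and 8 of the 10 to Hoxc. These directions belong to the labels as they stand. By *Klf4* and *Fgf5* the libraries labelled control EB and mutant ES were not at the stage of their label. The calls in this paragraph can therefore not be read as effects of the stage or genotype they name. With a pseudocount of 1 the count of 7 became 16, and without the library labelled control EB replicate 1 it was 4.

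In the Pcgf24, Pcgf35 and Pcgf6 lines limma called 0 members by label. In Pcgf24, 0% of all genes were called in ESCs and 0% in EBs, with 0 and 2 of the 38 members tested past an unadjusted *p* of 0.05 (*Hoxb5* and *Hoxa13*). In Pcgf35, 0.0401% and 0.0301% of genes were called, with 0 and 1 members past it (*Hoxb13*). In Pcgf6, 0% and 0% were called, with 0 members past it in either. Of all genes, 166 and 190 of 19250 were past it in Pcgf24, 282 and 419 of 19963 in Pcgf35, and 118 and 202 of 19695 in Pcgf6. In each of these lines a labelled group holds libraries with different deposited names, 5 or 6 of the 8 names differing from the label, so a count of 0 says nothing about the mutation. Levels by library were as follows. In Pcgf24 the highest cluster sums, 55.5 and 51.0 TPM, were those of 2 libraries named mutant ES (labelled control EB replicate 1 and mutant EB replicate 1). They were 20.2 and 23.2 TPM in those labelled control ES and mutant ES replicate 1, both named control ES. They were 24.8 and 23.7 TPM in the 2 named mutant EB and 7.53 and 6.32 in the 2 named control EB. In Pcgf6 they were 42.2 and 41.8 TPM in the 2 libraries named mutant ES, 26.2 and 24.8 in those named control ES, 24.0 and 29.9 in those named mutant EB and 8.07 and 5.64 in those named control EB. In Pcgf35 they were 38.2 and 35.7 TPM in the 2 named mutant ES, 33.9 and 34.1 in those named control ES, 18.3 and 15.3 in those named mutant EB and 10.7 and 11.3 in those named control EB. In each of the 3 lines the sums were thus higher in libraries named ES than in those named EB of the same genotype name. They were also higher in libraries named mutant than in those named control of the same stage name. No test was run on groups made from these names. Pcgf6 itself was at 34.7 to 46.3 TPM in the 4 libraries of its line named mutant and 67.1 to 105 in the 4 named control. In the Pcgf24 line, Pcgf2 was at 43.7 to 55.0 TPM in the 4 libraries named mutant and 39.6 to 49.6 in the 4 named control, and *Bmi1*, the gene of PCGF4, at 7.01 to 10.03 and 4.12 to 5.47 TPM. In the Pcgf35 line, Pcgf3 was at 27.6 to 35.6 TPM in those named mutant and 29.2 to 33.5 in those named control, and Pcgf5 at 15.6 to 21.30 and 21.33 to 24.7 TPM. By name, then, Pcgf5 lay just lower in mutants, *Bmi1* lay higher, and the ranges of Pcgf2 and Pcgf3 overlapped. By label the ranges of all 5 genes overlapped.

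**Figure D5:**
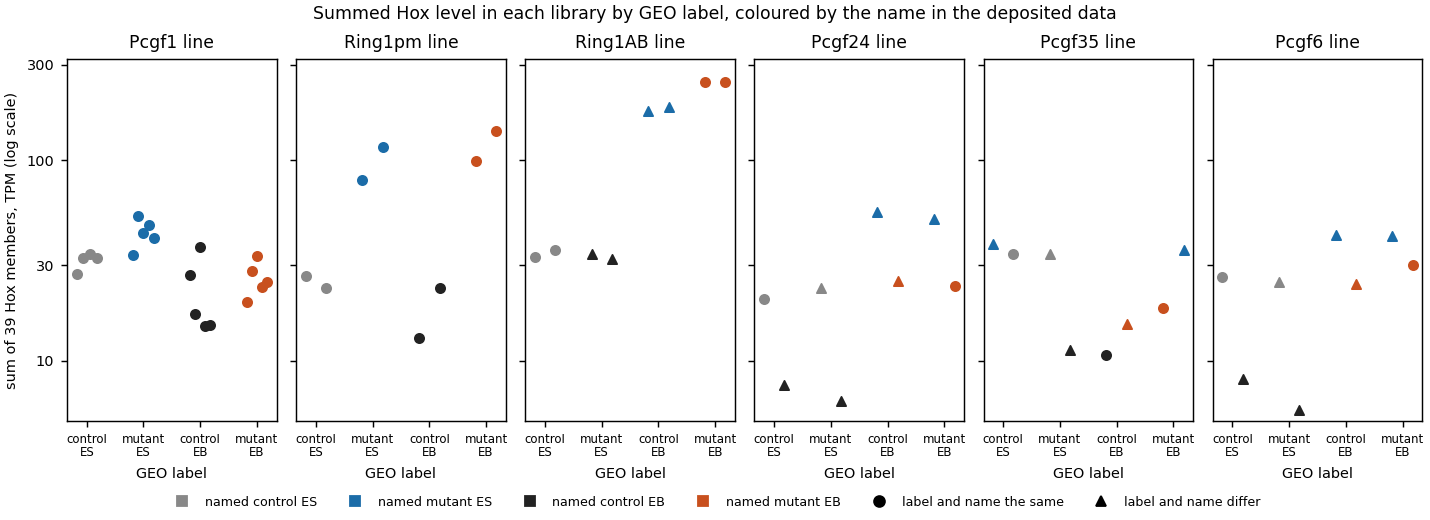
Sum of the 39 Hox members in each library (TPM, log axis) by its GEO label (horizontal axis) in the 6 lines, with colours for the condition in the deposited name and triangles where label and name differ. Ring1pm and Ring1AB libraries named mutant lie between 80.1 and 247 TPM, and the other libraries of all lines at 55.5 TPM or less.

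Partners and regulators of Hox genes were taken from fixed lists. TALE proteins bind DNA together with Hox proteins, and of their 9 genes *Meis1* was the one called higher in both lines. In the Pcgf1 line it ranged from 0.168 to 0.575 TPM over control EBs and from 1.99 to 6.21 over KO EBs (log2 fold change 3.17 ± 0.56, adjusted *p* = 0.00586), where 1 of 9 was called. In the Ring1pm line it was called in ESCs (1 of 9, 2.85 ± 0.52) and EBs (2 of 9 with *Meis3*, 3.35 ± 0.52). Of 15 caudal and retinoic acid genes, 1 was higher (*Cdx1*) and 1 lower (*Crabp2*) in KO EBs. In Ring1pm mutants *Aldh1a2*, which makes retinoic acid, was called higher in ESCs (2.92 ± 0.37) and EBs (2.97 ± 0.37), with 1 higher and 1 lower of 15 in ESCs and 4 higher and 0 lower in EBs. *Cdx1*, a caudal gene that acts upstream of Hox genes, was at 0.260 and 1.81 TPM in control EBs and 22.8 and 27.8 in mutant EBs (4.93 ± 0.68).

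Other genes of the clusters were mostly uncalled. Of 18 further transcripts of the clusters in the data (Evx genes, long noncoding RNAs and microRNA genes) 14 were tested in the Ring1pm line. Their median log2 fold changes were 1.35 in ESCs and 0.82 in EBs. Limma called 0 higher in either stage (7 and 5 were at an unadjusted *p* under 0.05) and 1 lower, in mutant EBs. This was *Halr1*, a noncoding RNA of the Hoxa cluster, at 115 and 116 TPM in control EBs and 59.2 and 59.6 in mutant EBs (log2 fold change -0.96 ± 0.15, adjusted *p* = 0.0198). In Pcgf1-KO cells 0 of 12 tested were called in either stage (0 in ESCs and 3 in EBs at an unadjusted *p* under 0.05). Of 16 flanking genes outside the clusters 0 were called in mutant against control in either stage of both lines (1 and 2 in the Pcgf1 line and 2 and 5 in the Ring1pm line at an unadjusted *p* under 0.05), with median log2 fold changes between -0.01 and 0.03. The difference between members and these lists was not tested. When control EBs and ESCs of the Pcgf1 line were compared, 2 flanking genes were called higher and 4 lower. Of the 12 cluster transcripts tested there, *Haglr* of Hoxd was called higher (1.74 ± 0.60), and *Hotair* of Hoxc (-1.51 ± 0.36) and *Mir196a-1* (-6.61 ± 1.44) lower. *Mir196a-1* is a microRNA gene, and whether its value in poly(A) RNA measures the microRNA was not checked.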

How the data were processed

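Poly(A) RNA of 59 libraries was sequenced by the authors (75 or 50 bp single-end reads) and aligned to mm9 with STAR 2.5.2b, which also counted reads on exons. The authors deposited 1 TPM table per library, and the step from counts to TPM is not given in the sources used here. Each table sums to 1000000, so the depth of a library is unknown and no counting error can be given. No 2 of the 1711 library pairs were identical. The 39 Hox members and all gene lists were chosen with earlier results of these data known.

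Groups were taken from the GEO labels. In the Pcgf1 line 1 KO EB library is replicate 4 by title and replicate 5 by another label, and the title was used. In 21 libraries label and deposited name differ, and nothing was averaged or tested by name.

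In each line limma 3.58.1 (R 4.3.3) was fitted to log2(TPM + 0.1) over the 4 labelled groups, with an empirical Bayes trend, for genes above 0 TPM in at least 1 library. Tests were two-sided and p-values were adjusted by Benjamini-Hochberg over all genes tested. Fold changes are on the log2(TPM + 0.1) scale, which understates changes of low genes, and errors are standard errors (SE). The script was tested on simulated data. Described with values in every library are, per comparison of the Pcgf1 and Ring1pm lines, up to 8 called members with the largest change, and the highest member of each cluster (21 members). Other members given with values were chosen after these were seen. For 1 member, which is part of the sums and counts, no values are reported here or plotted. Same-numbered libraries of the Pcgf1 line deviated together from their group means (27 pairs, r from 0.317 to 0.653 over 13400 genes), so the numbers were taken to pair them. Differently numbered libraries gave r from 0.213 to 0.621 within a library series (21 pairs) and from -0.508 to 0.163 between series (87 pairs), so number and series cannot be fully told apart. Alternatives were a pseudocount of 1, a minimum mean of 1 TPM, median-of-ratios scaling, the replicate number as a block, leaving out each library, and, chosen after seeing the data, library series as a factor and replicates 1 to 3 alone. Promoter windows were read from NCBIM37 (mm9) with GENCODE M1 annotation.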

Additional observations from a re-analysis of the deposited data

Results flagged for a closer look

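Of 88 groups of 4 or 5 libraries checked, 4 for each of the 21 members named by the rule and 4 for the sum of all members, 10 held a library far from the rest by Dixon's test, and chance alone flags about 1 in 20 groups. In each it was the highest value. In control EBs of the Pcgf1 line these were *Hoxa9* at 0.179 TPM and *Hoxc8* at 0.243 TPM in replicate 1, *Hoxd1* at 3.35 TPM and *Hoxd11* at 0.404 TPM in replicate 3, and *Hoxc12* at 0.181 TPM in replicate 5. In control ESCs they were *Hoxb5* at 0.171 TPM and *Hoxd1* at 0.218 TPM in replicate 4 and *Hoxc12* at 6.06 TPM in replicate 3. In KO ESCs they were *Hoxb5* at 0.385 TPM in replicate 1 and *Hoxd1* at 0.0812 TPM in replicate 4. Most other libraries of the group were listed at 0 for *Hoxa9*, *Hoxc8* and *Hoxc12* in control EBs and for *Hoxb5* and *Hoxd1* in both ESC groups.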

How the results depend on the processing

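Alternatives were run for 54 differences of single members. Of their values 563 kept direction and side of the threshold, 106 lost the call, 3 gained it and 3 changed sign. The last were uncalled Ring1pm ESC differences without 1 library, which ran from -0.34 to 0.20 for *Hoxb8* and from -1.18 to 0.13 for *Hoxb9*. Of the counts of called members 190 stayed within 1.5 times the main count and 29 did not. In the Pcgf1 line, KO against control EBs gave 3 called members and 1 with a mean of at least 1 TPM, 8 with the replicate block, 9 with library series as a factor and 1 with replicates 1 to 3 alone, and 0 to 3 without 1 library. Control EBs against ESCs gave 15, and 7 with the TPM minimum. KO EBs against KO ESCs gave 9, and 3 with the minimum, 16 with the block and 19 with library series. Fewer genes are tested under the minimum, and the cause of the other differences was not tested. In the Ring1pm line, leaving out 1 library gave 0 to 1 of 10 in ESCs, 0 to 3 of 19 in EBs and 1 to 1 of 2 between control stages, with fewer samples in each fit. In the Ring1AB line mutant against control EBs gave 7, 16 with a pseudocount of 1 and 4 to 7 without 1 library. Pairing could not be decided in lines with 2 replicates a group. Correlations of same-numbered libraries were 0.106 to 0.381 in Ring1pm, 0.616 to 0.758 in Pcgf24, 0.281 to 0.759 in Pcgf6, -0.790 to 0.0823 in Pcgf35 and -0.0376 to 0.0481 in Ring1AB. With the replicate block Ring1pm mutants gave 15 members in ESCs and 23 in EBs, where 5.86% and 8.22% of all genes were called higher, and no other count moved by over 1.5 times. Depth is unknown, so the counting error of low values could not be given.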
